A study of Rattus norvegicus with 6 samples.

Results

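The genes described here are 10 markers of Sertoli cells, the nurse cells inside the seminiferous tubule, read in cultures of Leydig cells from rats, which lie outside the tubule and make testosterone. The members were given by name (Clu, Tf, Cst12, Amh, Fshr, Sox9, Wt1, Dmrt1, Gata1 and Rhox5), and their probes were found by matching the RefSeq accession of each gene probe to a rat symbol. Of the 10 genes, 9 had a probe, with 11 probes among 30367 gene probes, which covered 15168 named genes. Sox9, the transcription factor that starts Sertoli cell development, had no matched probe and was not analysed here.

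The series compared primary Leydig cells of Sprague-Dawley rats given exosomes from primary Sertoli cells of rats (a dose of 5 µg/ml, added 24 h earlier) with Leydig cells that received none. Both groups were kept at 34 °C under 5% CO2 in F12/DMEM with 10% fetal bovine serum, penicillin and streptomycin. Each group had 3 samples, each on 1 single-colour Agilent array, called exosome 1 to 3 and untreated 1 to 3. The labels do not say whether the samples of a group stem from different animals or cultures, and the spread on which the p-values rest may be technical. Exosomes are small membrane vesicles that carry RNA and protein, and the comparison asks which transcripts differ in Leydig cell cultures after exposure to vesicles of Sertoli cells.

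Sertoli cells support the developing germ cells, respond to follicle-stimulating hormone through the receptor encoded by Fshr, and secrete proteins into the tubule, among them clusterin (Clu) and transferrin (Tf). Their identity rests on transcription factors such as SOX9, WT1, DMRT1 and GATA factors. Anti-Müllerian hormone, the product of Amh, is made by immature Sertoli cells and falls at puberty. Clu and Tf are also made by many other cell types, and Wt1 by other cells of mesodermal origin, so these genes do not mark Sertoli cells alone.

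The promoters of 3 members are shown because they differ in what the arrays measured. Amh was not well above background on any array, Fshr lay at the edge of detection, and Wt1 was measured by 3 probes that moved in opposite directions. Each sequence is from RefSeq on assembly GRCr8, covers 300 bases around the annotated start, runs 5′ to 3′ along the gene, and has motif matches in capitals.
Amh promoter (chr7:9559818-9560117, minus strand): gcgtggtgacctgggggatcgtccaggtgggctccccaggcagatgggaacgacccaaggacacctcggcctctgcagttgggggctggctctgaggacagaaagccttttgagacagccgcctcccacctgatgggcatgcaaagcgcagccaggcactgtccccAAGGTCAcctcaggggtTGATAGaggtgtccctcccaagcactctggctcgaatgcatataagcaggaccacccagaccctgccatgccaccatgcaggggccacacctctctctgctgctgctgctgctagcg
Fshr promoter (chr6:10952079-10952378, plus strand): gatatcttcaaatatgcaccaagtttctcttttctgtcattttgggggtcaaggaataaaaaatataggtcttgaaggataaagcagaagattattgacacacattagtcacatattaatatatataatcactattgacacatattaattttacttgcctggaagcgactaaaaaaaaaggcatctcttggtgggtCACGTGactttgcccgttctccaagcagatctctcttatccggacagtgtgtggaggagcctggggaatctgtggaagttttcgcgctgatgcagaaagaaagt
Wt1 promoter (chr3:112021759-112022058, plus strand): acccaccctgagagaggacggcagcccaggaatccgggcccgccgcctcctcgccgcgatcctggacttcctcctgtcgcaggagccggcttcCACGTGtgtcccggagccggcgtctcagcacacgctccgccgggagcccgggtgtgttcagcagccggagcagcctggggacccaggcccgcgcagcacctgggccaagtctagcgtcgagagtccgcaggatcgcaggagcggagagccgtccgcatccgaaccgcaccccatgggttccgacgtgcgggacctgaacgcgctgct
The motifs searched on both strands were a GATA motif, a SOX motif, the site of steroidogenic factor 1 (AAGGTCA) and the E-box (CACGTG). The GATA motif was written as AGATAA, or with a final base G as AGATAG, or with a first base T as TGATAA, or with both changes as TGATAG. The SOX motif was written as AACAAT, or in a longer form as AACAAAG. The Amh window held an AAGGTCA match whose first base lies at −84 from the annotated start and a GATA match at −67. The Fshr window held an E-box at −54, and the Wt1 window an E-box at −157. Among 33469 promoter windows of the same length, 4.61% held an AAGGTCA match, 30.3% a GATA match, 16.7% a SOX match and 6.42% an E-box. Tf, Cst12 and Dmrt1 had a window with none of these letters, and Gata1 had 1 SOX match. A match is a description of these windows and not evidence of binding.

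Levels are log2 processed signals minus the 75th percentile of the gene spots of the same array, so that 0 stands for that percentile. Levels of different genes are set side by side only where probes are ordered by brightness and in the sums of each list. The 75th percentile was a signal of 1004, 1061 and 860 on exosome arrays 1 to 3, against 872, 779 and 753 on untreated arrays 1 to 3. Between 67.2% and 72.2% of gene spots on the exosome arrays were marked well above background by the scanner software, against 72.6% to 75.6% on the untreated arrays, and 0 spots were saturated. The files record 3 scans, and 0 of them hold arrays of both groups, so no value within a scan could be had. With the scan as a random block in limma, 1189 genes were higher and 2709 lower, and Clu, Cst12 and the brightest Wt1 probe kept their calls. Scan and group cannot be told apart here, and a random block does not remove a scan difference that coincides with group. A probe entered the test with 3 or more of its 6 arrays well above background, and it passed the test at an adjusted p below 0.05 (limma, Benjamini-Hochberg over 20433 tested probes). A change is the exosome mean minus the untreated mean on the log2 scale, given with its standard error (SE), n = 3 per group.

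Of the 9 members on the array, 6 were tested, and with each gene taken at its brightest probe 1 rose, 2 fell and 3 did not pass the test. Clu and Cst12 fell and the brightest Wt1 probe rose, while Tf, Rhox5 and Fshr did not pass. Cst12 entered the test through its untreated arrays alone, a rule that favours a fall. Over all 10979 genes tested, 14.6% (1598) rose and 29.2% (3208) fell, so that a call in either direction was common on these arrays. In the authors' deposited table the same test called 2216 genes higher and 1782 lower, and with quantile normalization 2213 and 1766. The median change of the 6 members was 0.17, against −0.19 for all genes tested. It counts Wt1, at its brightest probe, and Fshr as higher, though no direction is given for either gene below. Quantile normalization moved the median of all genes to 0.01, and the median of the members is not given under that scaling. In bulk samples fewer cells of a type and less RNA per cell cannot be told apart.

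**Figure D1:**
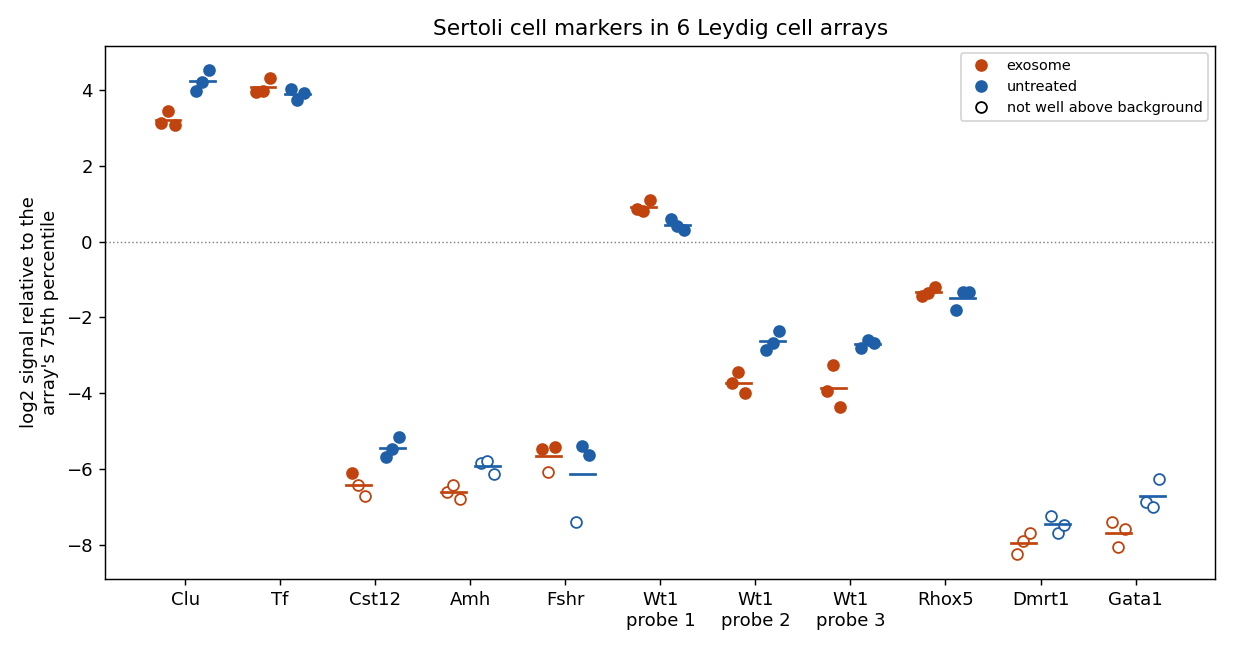
Log2 signal of the 11 marker probes relative to the array's 75th percentile (y axis), with 3 exosome arrays left of 3 untreated arrays for each probe and the group mean as a bar. Open circles are arrays on which the probe was not well above background. The exosome arrays lie below the untreated arrays for Clu, Cst12 and Wt1 probes 2 and 3, and above them for Wt1 probe 1. They also lie below for Amh, Dmrt1 and Gata1, which were not well above background on any array.

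The secreted protein genes are described first. Clu encodes clusterin, an extracellular chaperone that Sertoli cells release in large amounts. It was measured in up to 10 spots per array, which differed by an SD of 0.023 to 0.087 on the log2 scale within an array. Its level was 3.14, 3.44 and 3.07 on exosome arrays 1 to 3, against 3.98, 4.20 and 4.52 on untreated arrays 1 to 3. All exosome arrays were lower than all untreated arrays, by more than the spread of spots or of replicates. Clu fell by 1.02 (SE 0.18, 95% interval −1.46 to −0.58, adjusted p = 0.0116 by limma), which is 2.03-fold lower in exosome-treated cells. In the authors' deposited table its log2 values were 12.97, 13.34 and 12.76 in exosome samples, against 13.79, 14.03 and 14.31 in untreated samples, again without overlap. The call held in all 17 alternatives tried for it, with adjusted p from 0.00273 to 0.0495 and changes from −1.15 to −0.79.

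Tf encodes transferrin, the iron carrier that Sertoli cells supply to germ cells. Its level was 3.95, 3.96 and 4.31 on exosome arrays, against 4.04, 3.75 and 3.93 on untreated arrays. The groups overlapped, and the change of 0.17 ± 0.15 (SE) did not pass the test (adjusted p = 0.385 by limma). Its 95% interval, −0.19 to 0.54, includes 0.

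Cst12 encodes a cystatin, a member of a family of cysteine protease inhibitors. Its signal was close to the background, at 14.5, 12.3 and 8.19 on exosome arrays and 17.1, 17.5 and 21.0 on untreated arrays. It was well above background on 1 of 3 exosome arrays and on 3 of 3 untreated arrays. The untreated arrays alone were enough for it to enter the test, a rule that favours a fall, so its call is not used as support. On the log2 scale its level was −6.12, −6.43 and −6.71 in exosome samples, against −5.68, −5.47 and −5.16 in untreated samples, without overlap. Cst12 fell by 0.98 (SE 0.20, adjusted p = 0.0146 by limma), but the call was lost under quantile normalization, where the change was −0.37 (adjusted p = 0.0889), and in the authors' deposited table, where it was −0.36 (adjusted p = 0.0909). It was also lost without untreated 2 (−0.999, adjusted p = 0.0548 by limma) and without untreated 3 (−0.85, adjusted p = 0.054 by limma).

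Amh was not well above background on any of the 6 arrays. Its signal was 10.3, 12.4 and 7.70 on exosome arrays and 15.3, 14.0 and 10.8 on untreated arrays, above the highest negative control spot of the same array on 6 of 6. The groups did not overlap after scaling to the 75th percentile but overlapped in the authors' deposited table, and no fold is given because neither group was well above background.

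Fshr, the receptor gene, was at the edge of detection. Its signal was 22.8, 15.7 and 20.2 on exosome arrays, against 5.21, 18.4 and 15.1 on untreated arrays, and it was well above background on 2 arrays of each group. Untreated 1 alone was far below the others, and the log2 levels of the groups overlapped, though they did not in the authors' deposited table. The change of 0.49 ± 0.53 (SE) did not pass the test (adjusted p = 0.471 by limma), with a 95% interval from −0.76 to 1.75. Without untreated 1 the change was −0.13, and under the normexp background correction it was −0.10. In the authors' deposited table it was 1.01 (adjusted p = 0.0888 by limma), under quantile normalization 1.03 and under cyclic loess 0.98, so that no direction is given for Fshr.

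Of the nuclear factors, Wt1, a zinc finger transcription factor that Sertoli cells need to keep their identity, had 3 probes of 1 accession, each well above background on all 6 arrays. The brightest probe had levels of 0.86, 0.81 and 1.11 on exosome arrays, against 0.59, 0.41 and 0.30 on untreated arrays. Every exosome array was higher, and this probe rose by 0.49 ± 0.14 (SE, adjusted p = 0.0321 by limma), which is 1.41-fold. The second probe had levels of −3.74, −3.44 and −4.004 on exosome arrays, against −2.86, −2.69 and −2.36 on untreated arrays. Here every exosome array was lower, and the change was −1.09 ± 0.20 (SE, adjusted p = 0.0118 by limma). The third probe had levels of −3.95, −3.25 and −4.35 on exosome arrays, against −2.81, −2.59 and −2.68 on untreated arrays. It too was lower on every exosome array, with a change of −1.16 ± 0.28 (SE, adjusted p = 0.0202 by limma).

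The Wt1 probes disagreed in direction, and no single direction is given for the gene. The level of the brightest probe minus the mean of the other two was 4.71 ± 0.57 on exosome arrays and 3.10 ± 0.30 on untreated arrays (SD, n = 3 each). This quantity differed by 1.62 between the groups, without overlap, and is given with no test, since it was formed after the probes were seen to differ. Probes 2 and 3 differed from each other by 0.12 ± 0.28 on exosome arrays and 0.06 ± 0.23 on untreated arrays (SD, n = 3 each). The brightest probe stayed positive and the others negative under the 6 scalings tried, though the third probe lost its call under quantile normalization, under cyclic loess and in the authors' deposited table, with changes of −0.83, −0.77 and −0.84. The call of the brightest probe was lost when exosome 1, exosome 3, untreated 2 or untreated 3 was left out, with changes from 0.40 to 0.52, and that of the third probe without exosome 1, untreated 2 or untreated 3. The mean of the 3 probes gave −0.59 (adjusted p = 0.0235 by limma). Over the series, 307 named genes had at least 2 probes past the test, in 139 of them (45.3%) probes moved in opposite directions, and in 128 of these 139 (92.1%) the brightest probe past the test was a higher one, as in Wt1.

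Rhox5 encodes a homeobox protein that androgen induces in Sertoli cells of rodents. Its level was −1.42, −1.36 and −1.19 on exosome arrays, against −1.79, −1.33 and −1.32 on untreated arrays. The groups overlapped and the change was 0.16 ± 0.17 (SE, adjusted p = 0.465 by limma), with a 95% interval from −0.24 to 0.56. In the authors' deposited table the log2 values were 8.49, 8.51 and 8.72 in exosome samples, against 7.97, 8.42 and 8.41 in untreated samples, where the groups did not overlap but the change of 0.30 again did not pass the test.

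Dmrt1, which maintains the male fate of Sertoli cells in mice, and Gata1, a GATA factor of Sertoli cells and of blood cell precursors, were not well above background on any array. The signal of Dmrt1 was 3.29, 4.42 and 4.14 on exosome arrays and 5.81, 3.79 and 4.25 on untreated arrays, and it exceeded the highest negative control spot of its array on 2 of 6. The signal of Gata1 was 5.94, 3.97 and 4.45 on exosome arrays and 7.48, 6.01 and 9.73 on untreated arrays, above the highest negative control spot on 4 of 6. Neither was tested. Among the 9 members on the array, 4 were well above background on all 6 arrays and 3 on 0, against 56.5% and 23.9% of all gene probes.

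**Figure D2:**
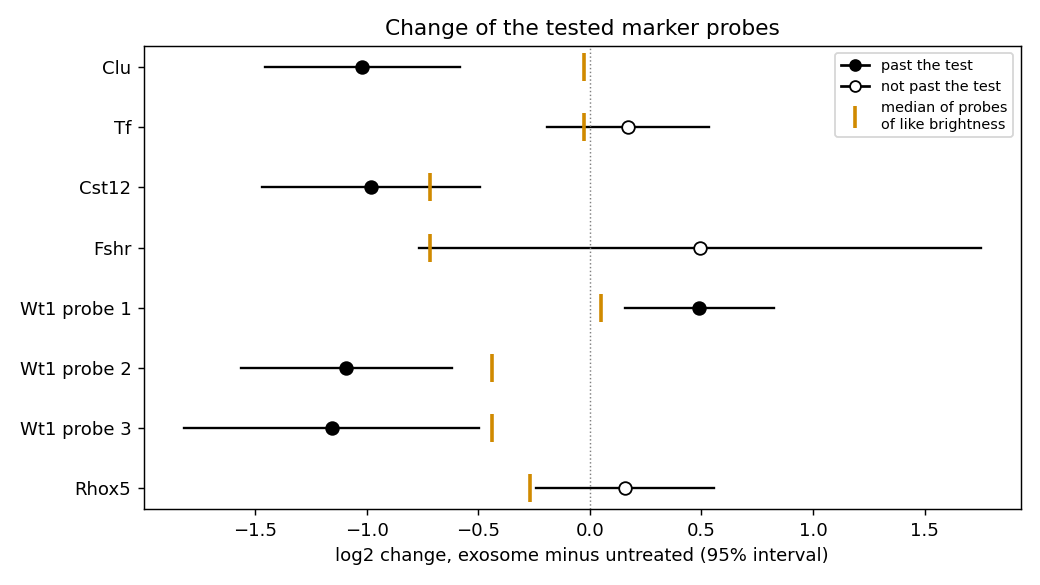
Log2 change, exosome minus untreated, of the 8 tested marker probes (x axis) with the 95% interval from limma as a line. Filled circles passed the test, and each upright mark is the median change of the tested probes of like brightness. Clu lies furthest from its mark among the probes past the test.

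The change of a probe went with its brightness over the whole array, so each member was also set beside probes of like signal. The 20433 tested probes were ordered by mean level and cut into 10 groups of equal size. The median change was −0.72 among the 2044 dimmest probes, 0.08 in the ninth group and −0.03 among the 2044 brightest. This shift is a measured property of these arrays, and its part in the marker changes was not tested.

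Clu belonged to the brightest group, in which 5 probes had a lower value than its change of −1.02 and 2038 a higher one. Of the probes in this group 10.3% fell past the test. Cst12 belonged to the dimmest group, where 37.8% of probes fell past the test and 745 had a lower value than its −0.98. Wt1 probes 2 and 3 lay in a group with a median of −0.44, in which 127 and 86 of 2043 probes had lower values. The brightest Wt1 probe lay in a group with a median of 0.05, in which 430 probes had higher values. Tf, Rhox5 and Fshr lay above the medians of their groups, by 0.20, 0.43 and 1.21, and 119 of the 2044 dimmest probes had a higher value than Fshr.

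**Figure D3:**
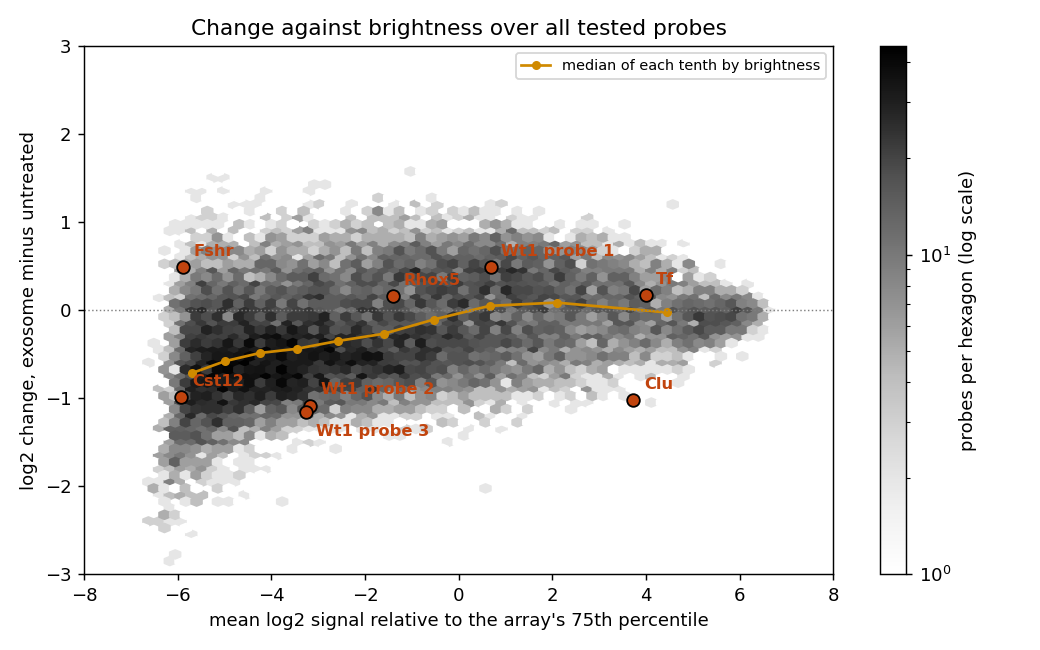
Log2 change, exosome minus untreated (y axis), against mean log2 signal relative to the array's 75th percentile (x axis) for the tested probes, as grey hexagons whose shade is the number of probes on a log scale; 9 probes with a change beyond 3 in size are not drawn. The line joins the medians of 10 groups by brightness, from −0.72 to −0.03, and the marked points are the marker probes, with Clu far below the line and Cst12 near it.

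Non-overlap between the groups was common on these arrays. Of all tested genes 24.1% had every exosome array higher than every untreated one, and 37.9% had every exosome array lower. Of the 6 tested members, 3 did not overlap, namely Wt1 (brightest probe), Clu and Cst12, the last of which entered the test through its untreated arrays alone.

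Among members well above background on all 6 arrays, the named genes whose levels followed them most closely were sought by Pearson correlation over the 6 arrays, which share the difference between the groups and are given as a description. For Clu these included Capzb and Ube2d2b, both with r of 0.9992, and changes of −0.92 and −0.88. For the brightest Wt1 probe they were Higd2a, Rhod and Gpr19, with r of 0.9993, 0.9988 and 0.9987. Rhox5 was most like Akr1c19, Zcchc9 and Tm4sf1, with r of 0.9985, 0.9907 and 0.9894. Tf had the lowest values, with Tekt3, P2ry6 and Hist3h2ba at r of 0.9661, 0.9625 and 0.9514.

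A further list of 24 genes known from Sertoli cells was read in the same fit. Of 23 on the array, 21 were tested, of which 4 rose, 3 fell and 14 did not pass the test, with a median change of 0.03. These shares can be read beside the 14.6% and 29.2% of all genes. Krt18, a keratin of epithelial cells, had levels of 0.63, 0.54 and 0.90 on exosome arrays, against 0.09, 0.16 and 0.04 on untreated arrays, and rose by 0.60 ± 0.14 (SE, adjusted p = 0.0177 by limma). Gja1, a connexin of gap junctions, had levels of 4.88, 4.70 and 4.99 on exosome arrays, against 4.29, 4.36 and 4.33 on untreated arrays, and rose by 0.53 ± 0.12 (SE, adjusted p = 0.0187 by limma). For both genes every exosome array was higher than every untreated one. The cystatin gene Cst9l (1.07 ± 0.35), Nr0b1, a repressor of steroid genes (−0.66 ± 0.18), and Ptgds, which makes prostaglandin D2 (−0.73 ± 0.24), also passed, and these 3 were named after their values were seen. Cst9l was well above background on 3 exosome arrays and 1 untreated array, so that the exosome arrays alone let it enter the test, and its change was 0.05 under normexp. Cst9l kept its call in 7 of 16 alternatives, Nr0b1 in 8 of 17 and Ptgds in 6 of 17. The change of Nr0b1 was −0.25 under quantile normalization and −0.16 under cyclic loess.

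Inha encodes the inhibin alpha subunit, by which Sertoli cells restrain pituitary release of follicle-stimulating hormone, and Leydig cells also express it. Its level was 0.25, 0.54 and 0.27 on exosome arrays, against 0.89, 0.88 and 0.97 on untreated arrays. The groups did not overlap, and it fell by 0.56 (SE 0.13, adjusted p = 0.0176 by limma). Cldn11, a claudin of the tight junctions between Sertoli cells, had a change of −1.26 ± 0.47 and did not pass the test, with exosome 3 at −7.05 and the other exosome arrays at −5.42 and −5.48. Gdnf, the niche factor for spermatogonial stem cells, had a change of −0.26 ± 0.17, which turned to 0.27 under quantile normalization, and did not pass. Kitlg, the ligand of the KIT receptor, had 0.88 ± 0.35, and Shbg, whose testicular product is androgen-binding protein, had −0.08 ± 0.36; neither passed the test. Inha, Krt18 and Gja1 kept their sign in 17 of 17 alternatives, but each of them missed the test without exosome 1, without untreated 2 and without untreated 3. Inha also missed it under median centring, with a change of −0.33.

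**Figure D4:**
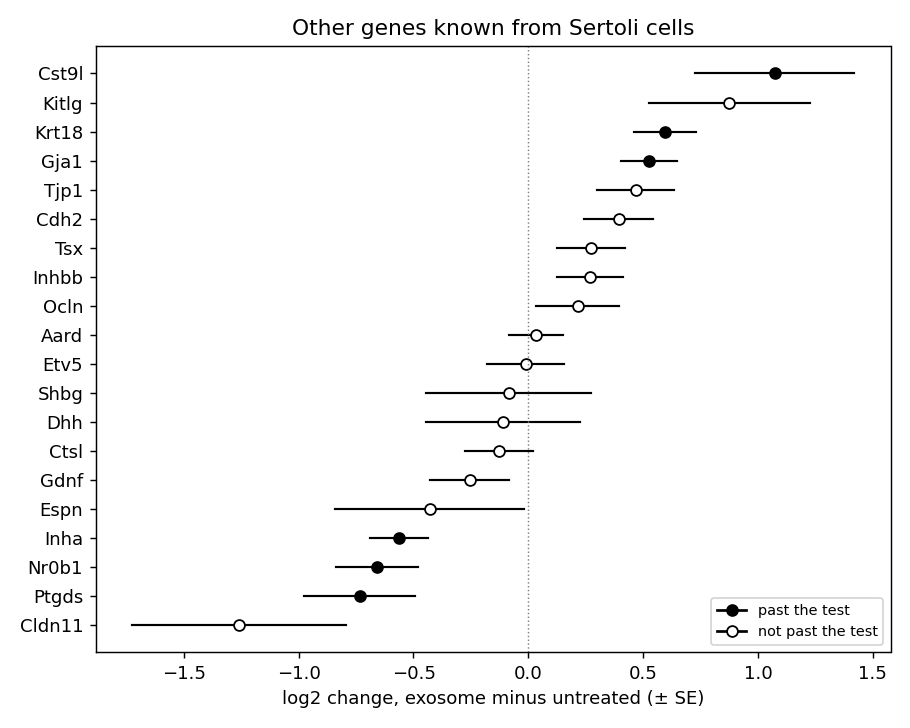
Log2 change, exosome minus untreated (x axis), ± SE, of 20 of the 21 tested genes in the further Sertoli cell list, ordered by change, n = 3 arrays per group. Filled circles passed the test: of these 3 lie to the right of 0 and 3 to the left.

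Markers of the other cells that such cultures may hold were read beside these results, and their part in the marker changes was not tested. The counts in these lists can be read beside the 14.6% of all genes that rose and the 29.2% that fell, and they are not set apart from those shares. Of 14 Leydig cell genes, 11 were tested, 1 rose and 2 fell, with a median of 0.11. Star, the mitochondrial cholesterol carrier, and Insl3, a peptide hormone of Leydig cells, were well above background on all arrays, with changes of −0.26 ± 0.13 and −0.29 ± 0.13, neither past the test. Cyp11a1, the first enzyme of steroid synthesis, fell by 0.86 (SE 0.12). The other gene of this list that fell was Gata4 (−1.61 ± 0.24, SE), and the gene that rose was Vcam1 (0.85 ± 0.13, SE). Both were named after their values were seen. Nr5a1, the gene of steroidogenic factor 1, and Lhcgr, through which luteinizing hormone acts, were well above background on 0 arrays.

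The summed level of the 9 Sertoli markers was 26.6 to 30.9 times the array's 75th percentile in exosome samples and 33.6 to 40.0 times in untreated samples. Without Clu it was 17.7 to 22.5 times in exosome samples and 15.2 to 18.3 times in untreated samples. The lower sum was thus that of Clu. The brightest gene left was Tf, at mean log2 levels of 4.08 in exosome and 3.90 in untreated samples. The rest of the sum therefore says little about the other markers. Such sums weight bright probes, and the single genes left out of them were chosen after their values were seen. The sum of the 11 measured genes of peritubular myoid cells was 53.4 to 62.6 in exosome samples and 72.5 to 76.8 in untreated samples. In that list 1 gene rose, 4 fell and 6 did not pass the test. Among those that fell were Hspb6, a small heat shock protein (−1.51 ± 0.19), and Tagln, an actin-binding protein (−0.66 ± 0.12, SE). The gene that rose was Mylk (0.59 ± 0.15, SE), named after its value was seen. The Leydig cell sum was 144 to 175 in exosome samples and 142 to 147 in untreated samples. Of 14 tested macrophage genes 0 rose and 4 fell, including C1qc and C1qa, of complement (−0.82 ± 0.15 and −0.63 ± 0.13). C1qb, also of complement, had a change of 0.004 ± 0.13 and did not pass the test. The macrophage sums were 45.4 to 51.2 in exosome samples and 49.2 to 50.9 in untreated samples. Cd68, a lysosomal protein of macrophages, was at −3.45 on exosome 3 and between 3.15 and 3.47 on the other arrays, and without it the sums were 39.1 to 45.3 in exosome samples and 39.7 to 40.4 in untreated samples. Of 9 tested endothelial genes 2 rose and 5 fell, with Sox18, a transcription factor, at −1.02 ± 0.12 and Eng, a co-receptor of TGF-beta, at −0.78 ± 0.15, and sums of 1.54 to 1.79 in exosome samples and 1.37 to 1.45 in untreated samples. The 2 that rose were Pecam1, an adhesion molecule of endothelial cells (1.02 ± 0.19), and Kdr, a receptor of vascular endothelial growth factor (0.67 ± 0.15), named after their values were seen. Without Pecam1 the sums were 0.639 to 0.722 in exosome samples and 0.838 to 0.950 in untreated samples. Of 6 tested germ cell genes 1 rose and 3 fell, and 7 of 15 germ cell genes were well above background on 0 arrays. Of those that fell, Spata3 was well above background on 0 exosome and 3 untreated arrays, and Acr on 1 and 3. The untreated arrays alone let both enter the test, a rule that favours a fall. The germ cell sums were 2.16 to 2.59 in exosome samples and 1.75 to 1.83 in untreated samples. The gene that rose was Odf2, of the outer dense fibres of the sperm tail (0.46 ± 0.12), and without it the sums were 0.188 to 0.238 in exosome samples and 0.240 to 0.344 in untreated samples.

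**Figure D5:**
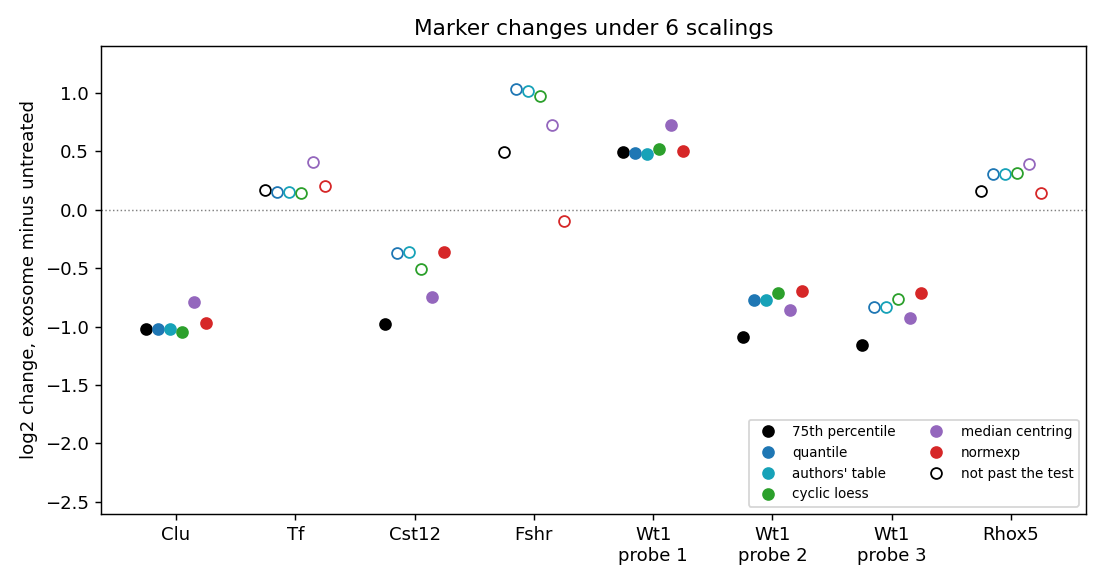
Log2 change, exosome minus untreated (y axis), of the 8 tested marker probes under 6 ways of scaling the arrays, which are the colours; filled circles passed the test and open ones did not. Clu and Wt1 probe 2 stay below 0 and past the test in all 6, Wt1 probe 1 stays above 0 and past the test, and Cst12 loses its call in 3.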

How the data were processed

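Total RNA of 6 samples, 3 per group, was hybridised to single-colour Agilent arrays of 44254 spots, of which 42877 were gene spots. The authors deposited the scanner output, whose processed signal is an intensity from Agilent Feature Extraction 11.0.1.1, per the submitters' processing notes. The authors also deposited a table of log2 values, whose column medians were 5.69 and whose values correlated with those of the same array at r of at least 0.996, and the normalization behind it is not given in the sources used here.

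Control spots and the 388 to 572 outlier spots per array were left out. The log2 processed signal minus the array's 75th percentile over gene spots was averaged over the spots of a probe. Probes well above background on at least 3 arrays, 20433 of 30367, were fitted with limma 3.58.1 in R 4.3.3 (lmFit, eBayes, prior degrees of freedom 2.60), with Benjamini-Hochberg adjustment over these probes. A gene was read at its brightest tested probe. RefSeq accessions gave a symbol to 18005 probes and none to 12362, and the fit was tested on simulated data.

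The members and lists were chosen with earlier results of these data known. Named were all members, of the further Sertoli list the 4 genes of smallest p past the test with Inha, Cldn11, Gdnf, Kitlg and Shbg, of the Leydig list Star, Cyp11a1 and Insl3, and of other lists at most the 2 of smallest p. Some genes chosen by these rules are not reported here. The alternatives were other scalings, normexp with an offset of 50, the authors' table, other filters and probe rules, a 2-fold minimum, a block for replicate number or scan, and each array left out. The normexp correction used the median signal, since the mean signal is not a column of the files used. The number of arrays limits the precision.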

Additional observations from a re-analysis of the deposited data

How the results depend on the processing

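Cyclic loess was chosen after seeing the data, and the causes of the changes below were not tested. The calls of Clu and of the second Wt1 probe, and the missed tests of Tf and Rhox5, held with the same direction under every alternative that could be run for them. The brightest Wt1 probe missed the test with no filter and with the replicate block (0.49 in both, adjusted p = 0.0646 and 0.081 by limma), ran from 0.40 to 0.57 with an array left out, and the mean of the probes of the gene gave −0.59. The third Wt1 probe gave −0.84 in the authors' table, −0.77 under cyclic loess and −0.83 under quantile normalization, and −1.46 to −0.91 with an array left out. Cst12 gave −0.36, −0.50 and −0.37 under the same alternatives, and −1.13 to −0.84 with an array left out. Fshr gave −0.10 under normexp, 1.01 in the authors' table, 1.03 under quantile normalization and 0.98 under cyclic loess, and −0.13 to 0.86 with an array left out.

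Members past the test and higher numbered 0 with the mean of the probes, no filter, the replicate block or a 2-fold minimum, and 0 to 1 with an array left out. Those lower numbered 3 with no filter, where Amh was added though not well above background on any array. They also numbered 3 with the mean of the probes, where Wt1 was added. They numbered 1 with all 6 arrays above background, in the authors' table, under cyclic loess, under quantile normalization and with a 2-fold minimum, and 1 to 2 with an array left out. Of all genes, 2756 were higher with median centring, 864 with no filter, 768 with the replicate block, 163 with a 2-fold minimum, and 134 to 1725 with an array left out. Genes lower numbered 1782 in the authors' table, 1652 under cyclic loess, 1856 with median centring, 1766 under quantile normalization, 887 with a 2-fold minimum, and 820 to 3294 with an array left out. Of the further Sertoli list, 9 were higher with median centring, 1 with the replicate block, 1 with a 2-fold minimum and 0 to 4 with an array left out. Those lower numbered 1 in the authors' table, under cyclic loess, with no filter and under quantile normalization, 0 with median centring, 6 under normexp, 0 with a 2-fold minimum and 0 to 3 with an array left out.

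Samples of the same replicate number did not deviate together (r of −0.087, −0.028 and −0.024). With so few arrays per group, these values cannot show whether samples of the same number share an animal or a culture. With the replicate block Inha, Krt18 and Gja1 missed the test. Dim probes such as Cst12 and Fshr lie near the background, which limits what the arrays can show for them.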
